A study of Sus scrofa with 37 samples.

Results

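The genes described here encode the subunits of the 5 respiratory chain complexes that are specified by nuclear DNA. They were taken from the deposited count table by symbol alone (NDUFA, NDUFB, NDUFC, NDUFS and NDUFV names with a number, SDHA to SDHD, UQCR names, CYC1, COX4 to COX8 names and ATP5 names), without use of their values. The pattern matched 59 of the 9418 rows, of which 9411 were tested, and all 59 were among those tested, with no count below 17 in any library. The 59 are 29 genes of complex I, 3 of complex II, 5 of complex III, 11 of complex IV and 11 of complex V. NDUFA4 and NDUFA4L2 are counted with complex I by their symbols, although the NDUFA4 protein is now placed in complex IV. Subunit genes such as SDHA, CYC1, COX6B1 and ATP5F1B were not analysed here.

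Complexes I and II pass electrons from NADH and succinate to coenzyme Q, complex III passes them on through cytochrome c to complex IV, where oxygen is reduced, and complex V makes ATP from the proton gradient that complexes I, III and IV build up. Except for complex II, each also holds subunits specified by mitochondrial DNA. Skeletal muscle is rich in these complexes, slow oxidative fibres more so than fast glycolytic fibres, and several subunits exist as a muscle form and a more widely expressed form.

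Bulk RNA sequencing was done after contusion of skeletal muscle in Bama minipigs, a small breed of pig; a contusion is a blunt mechanical injury. There were 4 libraries at each of 7 times after injury (4, 8 and 12 h, then 16, 20 and 24 h, and last 48 h) and 9 libraries labelled as controls. The design text speaks of 8 animals, fewer than the 37 libraries, and no label ties a library to an animal, so p-values measure only the spread between libraries, which may be partly technical. The labels give the same mechanical damage for control and injured libraries, and the muscle sampled, age, sex and handling of the controls are left unstated. In bulk tissue, fewer muscle fibres and less RNA per fibre cannot be told apart.

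Column totals ran from 9860426 to 22877840 counts, and levels are given in CPM, a gene's share of its library's counts on a fixed scale, after scaling by the trimmed mean of M-values (TMM). The limit that a count of 0 allows, 3 counts, lay between 0.108 and 0.378 CPM, for counting error only, below the level of every member. The 4 muscle fibre markers of 7 that were in the table summed to 32608 to 54928 CPM in the controls; ACTA1, MB and TTN were not analysed here. The libraries fall into 5 sets, found in an earlier analysis of these data, by column total and by the levels of C1QBP, NDUFAF8 and ND6, and 5 of the 7 times hold libraries of more than 1 set. NDUFAF8, a complex I assembly factor, lay below 4 CPM in 8 libraries, which are replicates 1, 2 and 4 at 4 h, 3 and 4 at 12 h, 1 and 4 at 20 h and 3 at 24 h, and in no control. The 16 h libraries share their set with controls 1 and 2, and the 48 h libraries with controls 6, 7 and 9. No 4 h library shares a set with a control. In a fit with the sets as a term, 4 sets were each compared with the set of controls 6, 7 and 9. NDUFB10 was the one member called in those comparisons, at a log2 difference of -1.10 between the libraries low in NDUFAF8 and that set (SE 0.26, adjusted p = 0.0108). Of all genes tested, 304 were called between the libraries low in NDUFAF8 and that set, 296 of them lower (3.15% of all genes). In the other comparisons 65, 9 and 1 of all genes were called. Other pairs of sets were not compared.

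Subunit mRNAs of each of the 5 complexes were lower in injured than in control muscle, most of all from 16 to 24 h. By edgeR's quasi-likelihood test with Benjamini-Hochberg adjustment over the 9411 genes at a threshold of 0.05, 58 of the 59 members differed over the 7 times together, as did 83.2% of the genes tested. At 16 h, 57 of 59 members fell, against 27.8% of all genes tested. At 20 h, 54 fell, against 26.2% of all genes. At 24 h, 53 fell, against 27.1% of all genes, and 1 rose, against 26.8% of all genes. The median log2 fold change of the 59 was -1.44 at 16 h, -1.43 at 20 h and -1.51 at 24 h, while that of all genes lay between -0.04 and -0.02. At these 3 times 52, 52 and 51 members were called and at least 2-fold lower, shares set against 12%, 12.5% and 13% of all genes.

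Summed over the 59 genes, the level was 6358, 7116, 7439.9 and 8543 CPM at 16 h, against 13513, 19197 and 25434 CPM (lowest, median and highest) in the 9 controls. It was 9331, 6776, 5839 and 6308 CPM at 20 h and 7108, 7669.8, 4969 and 7429 CPM at 24 h. Each of these 12 libraries was below the lowest control. Gene by gene, every injured library was below all 9 controls for 54 members at 16 h (15.9% of all genes), 47 at 20 h (11.8%) and 48 at 24 h (14.7%). The lowest group mean was at 16 h for 20 members, at 20 h for 16, at 24 h for 18, at 8 h for 4 and at 4 h for 1.

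**Figure D1:**
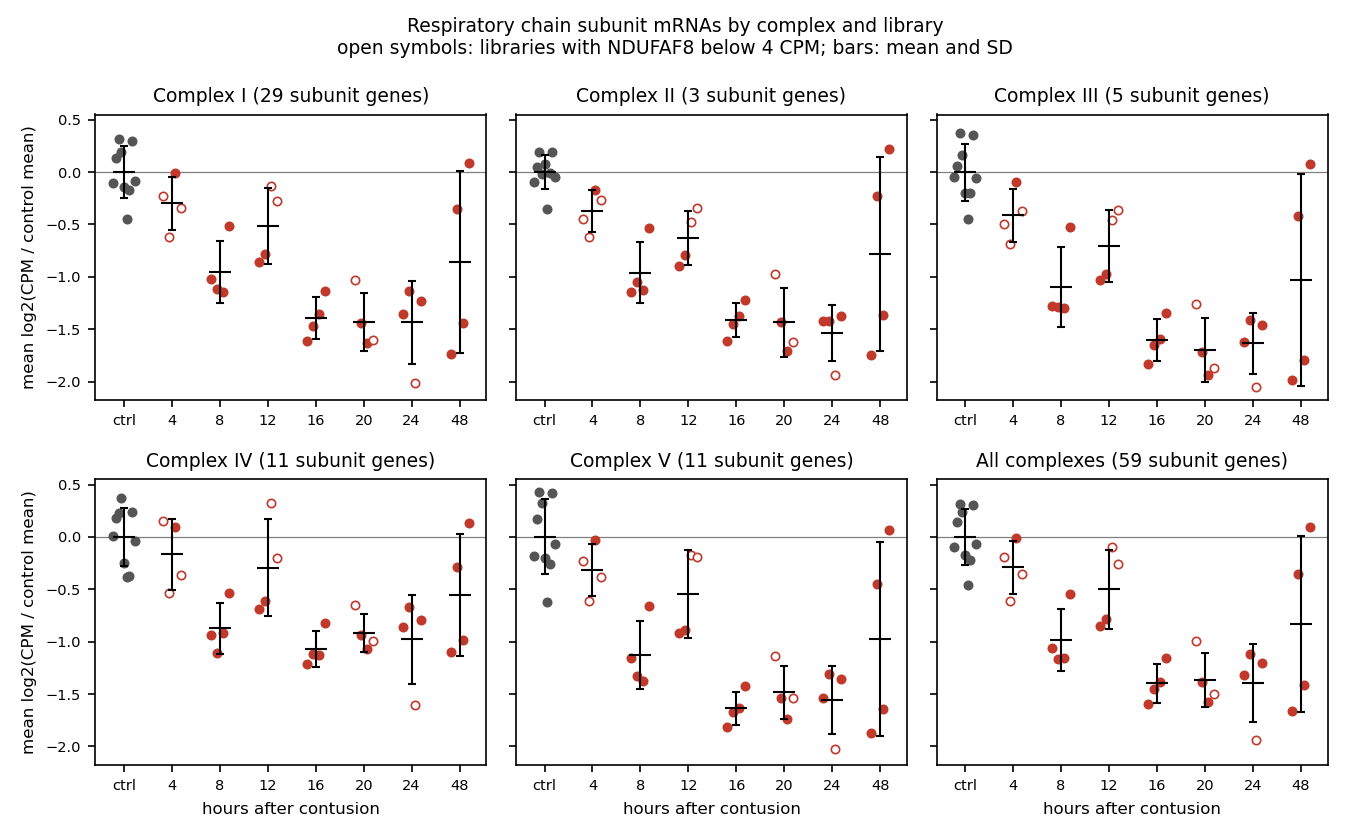
Mean log2 of CPM over the control mean for the subunit genes of each complex (y axis) by hours after contusion (x axis), with 1 point per library and bars for the mean and SD. Averaged over all 59 genes, the 4 libraries at 16 h lie between -1.60 and -1.15 and the 9 controls between -0.46 and 0.32, while the 48 h libraries are spread from -1.66 to 0.10.

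The counts at the other times were uneven, and these times also differ in their library sets. At 4 h, 6 of 59 members were lower, against 9.06% of all genes tested, so that the members' share was close to that background; their median log2 fold change was -0.27. At 8 h, 51 fell, against 28.2% of all genes, with a median of -1.01; 30 were called and at least 2-fold lower, against 12.4% of all genes, and for 24 every 8 h library was below all 9 controls, against 12.2%. At 12 h, 18 fell, against 14.7%, with a median of -0.44. The 12 h libraries were split, however. Averaged over the 59 genes, replicates 1 and 2 lay at -0.85 and -0.79 (log2 over the control mean). Replicates 3 and 4, which are low in NDUFAF8, lay at -0.10 and -0.26. A return towards control between 8 and 12 h cannot be told apart from library set. At 48 h, 27 fell, against 7.45%, with a median of -0.73, and for none of the 59 did every 48 h library lie below all 9 controls, as held for 0.818% of all genes. At each of 8, 16, 20 and 24 h, 46 members passed the test as lower, as did 12.5% of all genes, and 27 of these also passed at 48 h, as did 3.74% of all genes. ATP5F1D alone was lower at all 7 times, which held for 1.3% of all genes.

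**Figure D2:**
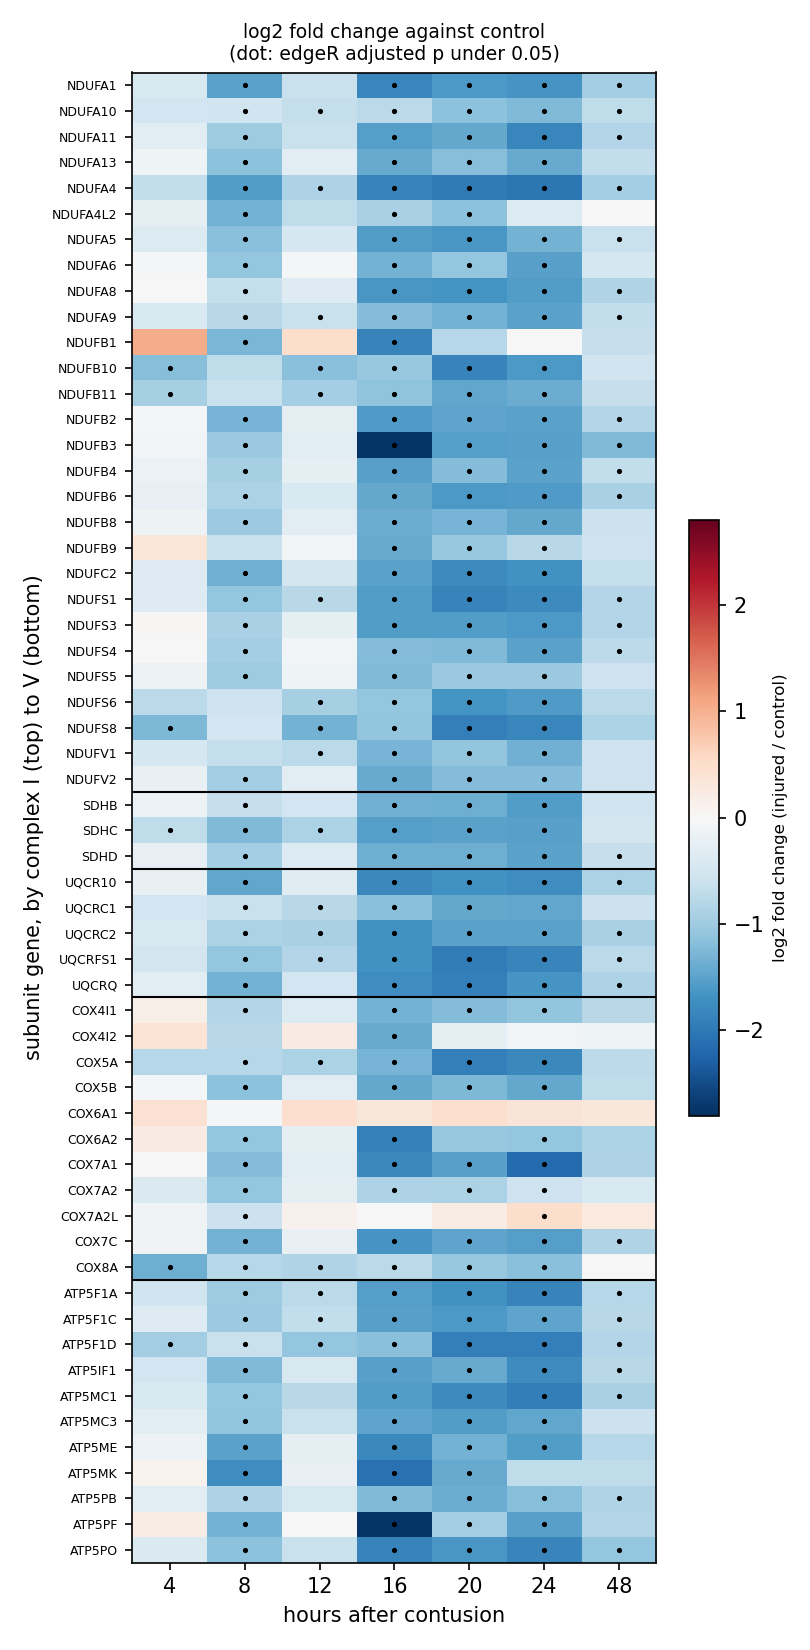
Heat map of the log2 fold change of each injured group (x axis, hours after contusion) against control for 58 subunit genes (y axis, complex I at the top to complex V at the bottom), with a dot where the adjusted p is under 0.05. Blue fills most of the 8, 16, 20 and 24 h columns in each complex, and COX6A1 and COX7A2L are pale or red at 16, 20 and 24 h.

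All 29 complex I genes fell at 16 h, 28 fell at 20 h and 27 at 24 h, with medians of -1.41, -1.44 and -1.51 on the log2 scale. NDUFA5 (Sscrofa11.1 chr18:23881872-23896699), an accessory subunit of the arm that reaches into the matrix, measured 85.2, 97.5, 100.4 and 109.6 CPM at 16 h, against 234, 309 and 337 CPM (lowest, median and highest) in the controls. At 20 h its level was 108, 90.8, 83.0 and 97.2 CPM, and at 24 h it was 105, 116, 104 and 139 CPM. The groups did not overlap at any of these times, and the change at 20 h was a log2 fold change of -1.63 (SE 0.22, adjusted p = 7.42e-07). NDUFC2 (chr9:12486488-12492507), a subunit of the membrane arm, measured 72.0, 48.1, 38.3 and 57.0 CPM at 20 h, against 112, 188 and 237 CPM (lowest, median and highest) in the controls, without overlap, a log2 fold change of -1.78 (SE 0.27, adjusted p = 3.27e-06).

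Among complex I genes the lowest log2 fold change at 16 h was that of NDUFB3 (chr15:104747835-104759137), another membrane arm subunit. NDUFB3 measured 22.1, 30.3, 31.1 and 34.6 CPM at 16 h, against 76.4, 236 and 282 CPM (lowest, median and highest) in the controls, a log2 fold change of -2.75 (SE 0.33, adjusted p = 1.37e-07). The lowest control, replicate 1, is of the same library set as the 16 h libraries. With the controls of that set alone (replicates 1 and 2), the log2 fold change of NDUFB3 at 16 h was -2.39 (adjusted p = 0.00448). At 20 h NDUFB3 measured 57.9, 70.8, 65.5 and 77.3 CPM and at 24 h 59.8, 80.3, 54.8 and 81.7 CPM, with log2 fold changes of -1.55 and -1.52 (adjusted p = 0.000111 and 0.000117), and at both times 1 or more libraries reached above control replicate 1.

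Core subunits of complex I fell as well. NDUFS1, the iron-sulfur subunit that takes electrons from NDUFV1 and NDUFV2, had log2 fold changes of -1.56, -1.87 and -1.78 at 16, 20 and 24 h. NDUFV1, which binds NADH, had -1.29, -1.11 and -1.36, and NDUFV2 had -1.41, -1.21 and -1.21. NDUFS3, of the arm that reaches into the matrix, had -1.56, -1.57 and -1.60. Each of these falls passed the test, and every injured library at 16 and at 24 h was below all 9 controls for each of the 4 genes. These 4 were named for their role after their values had been seen.

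NDUFA4 (chr9:80637005-80644067) had the lowest log2 fold change in its complex at 8 h. It measured 315, 281, 265 and 462 CPM at 8 h, against 511, 1051 and 1372 CPM (lowest, median and highest) in the controls, a log2 fold change of -1.57 (SE 0.33, adjusted p = 0.000183) with no overlap. At 24 h NDUFA4 measured 248, 284, 182 and 259 CPM, a log2 fold change of -2.01 (SE 0.34, adjusted p = 1.22e-05). Its paralog NDUFA4L2 (chr5:22540482-22548418), known as a gene induced by low oxygen, measured 16.1, 21.0, 12.8 and 14.0 CPM at 24 h, against 8.86, 20.5 and 33.1 CPM (lowest, median and highest) in the controls. The NDUFA4L2 groups overlapped, and its log2 fold change of -0.39 at 24 h did not pass the test (SE 0.30, adjusted p = 0.27). At 20 h NDUFA4L2 was lower, a log2 fold change of -1.16 (SE 0.31, adjusted p = 0.00252).

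NDUFB1 (chr7:113652772-113659937), a small membrane arm subunit named here after its values were seen, was not called at 20 or 24 h. It measured 4.41, 16.7, 2.57 and 13.9 CPM at 24 h, against 4.02, 9.23 and 14.9 CPM (lowest, median and highest) in the controls, a log2 fold change of 0.00 (SE 0.43, adjusted p = 0.996). At 16 h it measured 2.10, 3.24, 2.18 and 2.75 CPM, all 4 below the lowest control, a log2 fold change of -1.88 (SE 0.50, adjusted p = 0.00216). At 24 h replicates 2 and 4, which share a library set, were near or above the highest control, and replicates 1 and 3 were near or below the lowest.

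All 3 complex II genes fell at 8, 16, 20 and 24 h. SDHC (chr4:89135410-89169164), a membrane anchor of succinate dehydrogenase, ranged over 284, 399.6 and 465 CPM (lowest, median and highest) in the 9 controls. It measured 201, 211, 261 and 277 CPM at 4 h, 149.8, 156, 149 and 198 CPM at 8 h and 198, 208, 153 and 278 CPM at 12 h. At 16 h it measured 121, 132, 141 and 135 CPM, at 20 h 208, 132, 101.12 and 109 CPM and at 24 h 148, 134, 100.2 and 155 CPM. From 4 to 24 h each of the 24 injured libraries was below the lowest control, and at 48 h replicates 1 and 3 (112 and 145 CPM) were below it and replicates 2 and 4 (326 and 500.3 CPM) above it. The change at 16 h was a log2 fold change of -1.55 (SE 0.26, adjusted p = 1.91e-05).

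SDHD (chr9:39790654-39803602), the other membrane anchor, measured 73.1, 83.5, 57.2 and 85.0 CPM at 24 h, against 169, 205 and 259.5 CPM (lowest, median and highest) in the controls, a log2 fold change of -1.50 (SE 0.22, adjusted p = 2.05e-06) without overlap. SDHB (chr6:75648362-75678111), the iron-sulfur subunit, measured 205, 196, 131 and 185 CPM at 24 h, against 424, 519.7 and 618 CPM (lowest, median and highest) in the controls, a log2 fold change of -1.56 (SE 0.27, adjusted p = 1.81e-05), again without overlap. At 8 h the change of SDHB was smaller, at 311, 318, 289 and 426 CPM with overlap of the groups and a log2 fold change of -0.66 (SE 0.26, adjusted p = 0.0298), and it did not pass edgeR's test without 8 h replicate 1, 2 or 3 (adjusted p = 0.0793, 0.0743 and 0.0884).

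The 5 complex III genes fell at 8, 16, 20 and 24 h, with medians of -1.70, -1.69 and -1.64 at the last 3 times. UQCRFS1, the Rieske iron-sulfur protein, measured 207, 146, 138 and 145 CPM at 20 h, against 438, 613 and 763 CPM (lowest, median and highest) in the controls, a log2 fold change of -1.95 (SE 0.27, adjusted p = 1.48e-06). Its level was 148, 189, 198 and 231 CPM at 16 h and 181, 184, 137 and 184 CPM at 24 h, and the groups did not overlap at these times. Among the 8 h libraries of UQCRFS1, at 245, 256, 258 and 401 CPM, replicate 4 was the highest. The small subunit UQCR10 (chr14:46783340-46786140) measured 81.4, 85.1, 92.5 and 123 CPM at 16 h, against 220.1, 314 and 425 CPM (lowest, median and highest) in the controls, a log2 fold change of -1.79 (SE 0.31, adjusted p = 2.58e-05) without overlap.

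UQCRQ, another small subunit, measured 39.3, 33.9, 27.7 and 29.1 CPM at 20 h, against 81.5, 114 and 162 CPM (lowest, median and highest) in the controls, a log2 fold change of -1.92 (SE 0.33, adjusted p = 2.3e-05) without overlap. The core protein UQCRC2 measured 133, 137, 145 and 132 CPM at 16 h, against 319, 402 and 649.6 CPM (lowest, median and highest) in the controls, a log2 fold change of -1.70 (SE 0.30, adjusted p = 2.56e-05) without overlap. The other core protein, UQCRC1, had the largest p of its complex over the 7 times together. UQCRC1 measured 326, 316, 204 and 290.3 CPM at 24 h, against 578, 787 and 974 CPM (lowest, median and highest) in the controls, a log2 fold change of -1.46 (SE 0.26, adjusted p = 2.23e-05) without overlap, while at 8 h it measured 485, 440.0, 449 and 643 CPM with overlap.

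Both members that did not fall at 16 h, COX6A1 and COX7A2L, belong to complex IV by their symbols. Of its 11 genes 9 fell at 16 h, 7 at 20 h and 8 at 24 h, with medians of -1.33, -1.06 and -1.10. COX7C (chr2:94345436-94347709), a small subunit, measured 158, 196, 190.2 and 232 CPM at 16 h, against 396, 614 and 778 CPM (lowest, median and highest) in the controls, a log2 fold change of -1.66 (SE 0.30, adjusted p = 4.04e-05) without overlap. COX7C was also below all controls at 8 h, at 208, 216, 192 and 369 CPM, a log2 fold change of -1.32 (SE 0.29, adjusted p = 0.000391). COX5A measured 190.1, 208, 171 and 109.6 CPM at 20 h, against 411, 666 and 795 CPM (lowest, median and highest) in the controls, a log2 fold change of -1.91 (SE 0.32, adjusted p = 1.33e-05) without overlap. COX4I1, the widely expressed form of subunit 4, measured 167, 195, 200.02 and 246 CPM at 16 h, against 323, 482 and 701 CPM (lowest, median and highest) in the controls, a log2 fold change of -1.33 (SE 0.31, adjusted p = 0.000607) without overlap.

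COX6A1 (chr14:40408600-40410810), the widely expressed form of subunit 6A, did not pass the test over the 7 times together (adjusted p = 0.161). It measured 49.4, 41.0, 37.5 and 46.9 CPM at 16 h, 38.6, 40.3, 44.5 and 71.8 CPM at 20 h and 45.4, 38.1, 57.0 and 39.9 CPM at 24 h, against 20.1, 33.2 and 50.014 CPM (lowest, median and highest) in the controls, and the groups overlapped. Its log2 fold changes lay between -0.05 at 8 h and 0.48 at 20 h, with adjusted p from 0.0577 to 0.851. Scaling by column totals moved the median log2 fold change of all genes to 0.31, 0.29, 0.46 and 0.34 at 16, 20, 24 and 48 h, and COX6A1 was then called higher at each of these times (log2 0.65, 0.82, 0.84 and 0.73).

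COX7A2L, whose protein joins complexes III and IV into supercomplexes, was the one member called higher at any time with TMM scaling. It measured 70.3, 69.3, 79.2 and 74.7 CPM at 24 h, against 37.2, 50.6 and 62.7 CPM (lowest, median and highest) in the controls, each injured library above each control, as in 16.4% of all genes, a log2 fold change of 0.49 (SE 0.18, adjusted p = 0.0243). Without 24 h replicate 3, one of the libraries low in NDUFAF8, it did not pass the test (adjusted p = 0.0606), nor with the library sets as a term (log2 0.49, adjusted p = 0.12). At 8 h it was lower, at 33.8, 35.0, 33.4 and 36.9 CPM, all 4 below the lowest control, a log2 fold change of -0.59 (SE 0.19, adjusted p = 0.0102). COX4I2, a form of subunit 4 known from lung and from cells short of oxygen, measured 1.46, 1.90, 1.25 and 2.82 CPM at 16 h, against 2.95, 4.35 and 6.93 CPM (lowest, median and highest) in the controls, a log2 fold change of -1.40 (SE 0.35, adjusted p = 0.00124) without overlap. At 24 h COX4I2 measured 5.14, 6.86, 3.15 and 3.53 CPM, with overlap and a log2 fold change of -0.07 (SE 0.32, adjusted p = 0.864).

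**Figure D3:**
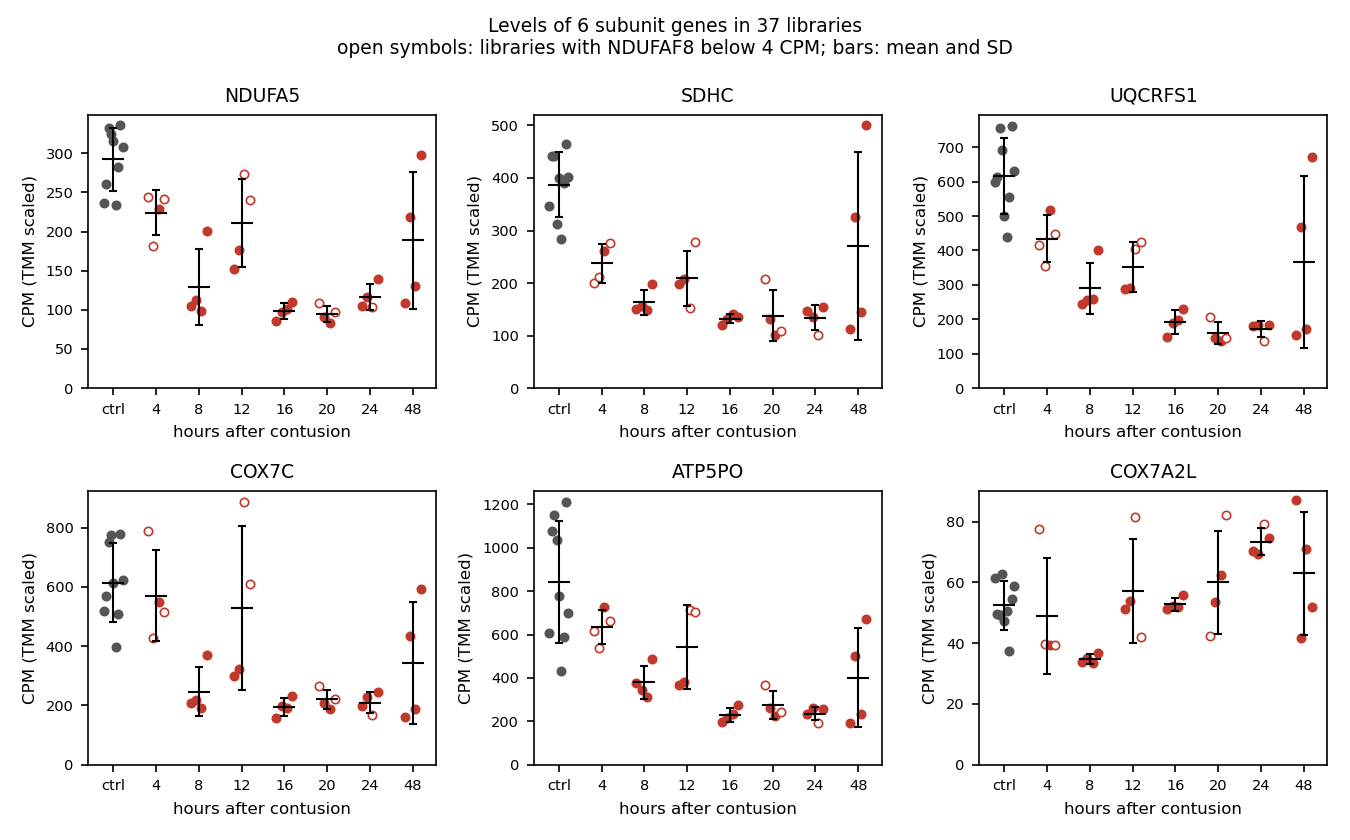
CPM (TMM scaled, y axis from 0) of 6 subunit genes by hours after contusion (x axis), with 1 point per library and bars for the mean and SD. NDUFA5, SDHC, UQCRFS1, COX7C and ATP5PO have their lowest libraries between 16 and 48 h, while the 4 COX7A2L libraries at 24 h, from 69.3 to 79.2 CPM, are above the highest control.

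All 11 complex V genes fell at 8, 16 and 20 h and 10 of the 11 at 24 h, with medians of -1.11, -1.54, -1.56 and -1.57. ATP5PO, which links the stator to the catalytic head, measured 198, 215, 235 and 274 CPM at 16 h, against 431, 779 and 1210.3 CPM (lowest, median and highest) in the controls, a log2 fold change of -1.87 (SE 0.29, adjusted p = 6.79e-06) without overlap. Its level was 367, 259, 224 and 241 CPM at 20 h and 232, 263, 192 and 254 CPM at 24 h, again below every control. ATP5F1D, the delta subunit of the rotor stalk, measured 205, 203, 89.3 and 170.1 CPM at 24 h, against 434, 634 and 852 CPM (lowest, median and highest) in the controls, a log2 fold change of -1.90 (SE 0.27, adjusted p = 1.45e-06) without overlap. The change of ATP5F1D at 8 h was the smallest of its 7, at 426, 362, 370.0 and 471 CPM with overlap and a log2 fold change of -0.62 (SE 0.25, adjusted p = 0.0392); that call was lost with limma-voom and without any 1 of controls 1, 2, 3 and 8 and of 8 h replicates 1, 2 and 3.

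ATP5PF, the coupling factor in the stator, had the lowest log2 fold change of complex V at 16 h, where it measured 27.7, 31.4, 31.4 and 38.7 CPM, against 71.4, 186 and 319 CPM (lowest, median and highest) in the controls, a log2 fold change of -2.75 (SE 0.35, adjusted p = 3.56e-07) without overlap. The lowest control was again replicate 1, and with controls 1 and 2 alone, which share the library set of the 16 h libraries, the log2 fold change of ATP5PF was -1.87 (adjusted p = 0.00443). At 20 h ATP5PF measured 125, 103, 97.1 and 120.0 CPM, above the lowest control, a log2 fold change of -0.96 (SE 0.31, adjusted p = 0.0112). ATP5MK, a small membrane subunit, measured 7.95, 5.38, 5.46 and 16.7 CPM at 8 h, against 19.3, 29.9 and 40.6 CPM (lowest, median and highest) in the controls, a log2 fold change of -1.73 (SE 0.38, adjusted p = 0.000377) without overlap. At 24 h ATP5MK measured 9.41, 25.8, 7.29 and 28.4 CPM and did not pass the test (log2 -0.71, SE 0.36, adjusted p = 0.0903), with replicates 2 and 4 inside the control range and replicates 1 and 3 below it, the same split as in NDUFB1. Among the other genes, ATP5F1A and ATP5F1C of the catalytic part and the inhibitor ATP5IF1, named here for their roles after their values were seen, had log2 fold changes of -1.87, -1.47 and -1.75 at 24 h, each past the threshold.

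The 6 members called at 4 h were NDUFB10, NDUFB11, NDUFS8, SDHC, COX8A and ATP5F1D, of which NDUFB10, NDUFB11, NDUFS8 and COX8A are named after their values were seen. NDUFB10 (chr3:40003109-40005650), of the membrane arm, measured 114, 67.0, 247 and 90.7 CPM at 4 h, against 198, 318 and 340.2 CPM (lowest, median and highest) in the controls. NDUFS8 (chr2:4863295-4867392), an iron-sulfur core subunit of complex I, measured 131, 114, 434 and 87.3 CPM, against 327, 419 and 771 CPM (lowest, median and highest). COX8A, a small subunit of complex IV, measured 28.6, 16.2, 38.5 and 12.0 CPM, against 38.8, 57.7 and 94.0 CPM (lowest, median and highest). In each of the 3 genes, replicates 1, 2 and 4 were below the lowest control and lower than replicate 3, and these 3 replicates are the 4 h libraries low in NDUFAF8. The log2 fold changes at 4 h were -1.20 for NDUFB10, -1.25 for NDUFS8 and -1.38 for COX8A (adjusted p = 0.00995, 0.0445 and 0.00305).

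NDUFS8 was lowest in a library low in NDUFAF8 at 20 and 24 h too, though not low in each of these libraries. At 24 h NDUFS8 measured 17.7 CPM in replicate 3 and 166, 184 and 142 CPM in replicates 1, 2 and 4. At 20 h it measured 44.2 CPM in replicate 4 and 141 CPM in replicate 1, both low in NDUFAF8, and 165 and 135 CPM in replicates 2 and 3. With the library sets as a term no member passed at 4 h by edgeR, although 24 had an unadjusted p under 0.05, each lower. In that fit 259 of all 9411 genes tested passed in either direction, and 1976 had an unadjusted p under 0.05. Without 4 h replicate 2 alone, 1 member passed as lower, against 2.54% of all genes. Without replicate 1 or 4 alone, 3 passed as lower, against 10% and 5.62% of all genes. The part of the library sets in the 4 h calls was not tested beyond these fits.

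At 12 h and 48 h the 4 libraries fell into pairs. Summed over the 59 genes, 12 h replicates 1 and 2 had 10238 and 10742 CPM and replicates 3 and 4 had 16819.6 and 16494 CPM, against 13513 to 25434 CPM in the controls. Replicates 1 and 2 were below every control, and replicates 3 and 4, the 12 h libraries low in NDUFAF8, were inside the control range. COX7C showed the split in a single gene, at 299, 324, 886 and 610.0 CPM in replicates 1 to 4. Without the libraries low in NDUFAF8, 32 members were lower at 12 h, with a median log2 fold change of -0.90. When replicates 1 and 2 were set against the 4 controls of their own set, a comparison added after the data were seen, 49 members were lower, with a median of -1.06. Leaving out replicate 1 alone left 5 members lower, against 9.12% of all genes, so that the members' share was close to that background. Leaving out replicate 2 alone left 11, against 12.6% of all genes. The part of the library sets in the split was not tested.

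At 48 h replicates 1 and 3 had summed subunit levels of 5570.2 and 6596 CPM, both below every control, and replicates 2 and 4 had 14939.7 and 20984 CPM, both inside the control range. All 4 belong to the same library set. NDUFA4 measured 176, 600.0, 235 and 1031 CPM in replicates 1 to 4, against 511, 1051 and 1372 CPM (lowest, median and highest) in the controls. The count of members lower at 48 h went with single libraries: it was 0 without replicate 1 (16 at an unadjusted p under 0.05, by edgeR), 1 without replicate 3 and 49 without replicate 4. The share of all genes that were lower moved as well, to 0.871%, 1.53% and 12.9% in these fits. The members' count was 13, 15 and 13 without control 3, 4 or 8, against 5.55%, 6.21% and 5.51% of all genes. With the library sets as a term it was 4, namely NDUFA5, NDUFB3, SDHD and ATP5PB. Against the controls of its own set alone, replicates 6, 7 and 9, a comparison added after the data were seen, none passed by edgeR, 0 also at an unadjusted p under 0.05, and the median log2 fold change was -0.47. No gene at all passed in that comparison, and 1053 of all 9411 genes tested had an unadjusted p under 0.05.

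The libraries with lower subunit levels within these pairs had more macrophage marker RNA. The 14 macrophage and monocyte markers in the table, of 15 listed, summed to 762 and 545 CPM in 48 h replicates 1 and 3, and to 132 and 174 CPM in replicates 2 and 4. At 12 h the sums were 396, 215, 178 and 115 CPM in replicates 1 to 4, against 69.8 to 220.2 CPM in the controls. At 8 h, replicate 4 had the lowest sum, 154 CPM, against 604, 417 and 331 CPM in replicates 1 to 3, and the highest summed subunit level, 13249.8 CPM, against 9726, 9143 and 8964 CPM. Replicate 4 at 8 h is also the one 8 h library in its library set, with the other 3 sharing the set of controls 1 and 2. At 20 h the order was not the same. Replicate 3 had the lowest summed subunit level, 5839 CPM, at a macrophage sum of 388 CPM, while replicate 4 had 6308 and 770 CPM. Muscle fibre markers split in the same pairs. They summed to 12004 and 18544 CPM in 48 h replicates 1 and 3 and to 45500 and 36258 CPM in replicates 2 and 4. At 12 h they reached 27525 and 31191 CPM in replicates 1 and 2 and 37594 and 58627.5 CPM in replicates 3 and 4. The part of muscle fibres, of other cells and of the library sets in the subunit levels was not tested.

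Between injured times, 29 members were lower at 8 h than at 4 h, as were 15.4% of all genes, 13 were higher at 12 h than at 8 h, as were 7.14%, and 25 were higher at 48 h than at 24 h, as were 10.2%. No member moved the other way in any of the 3 tests. The 8 h libraries share no library set with the 4 h or the 12 h libraries. The differences of 8 h from 4 h and of 12 h from 8 h thus cannot be told apart from library set. UQCR10 measured 98.5, 98.7, 95.6 and 190.2 CPM at 8 h, against 354, 224, 306 and 258 CPM at 4 h, a log2 fold change of -1.24 (SE 0.34, adjusted p = 0.00741). SDHC measured 112, 326, 145 and 500.3 CPM at 48 h, against 148, 134, 100.2 and 155 CPM at 24 h, a log2 fold change of 1.01 (SE 0.29, adjusted p = 0.0128). UQCR10 did not overlap between these times, while SDHC at 48 h lay within the 24 h values in replicates 1 and 3 and above them in replicates 2 and 4. The SDHC call was lost without 24 h replicate 3 (adjusted p = 0.0517) or 48 h replicate 4 (adjusted p = 0.197).

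With the library sets as a term, no member passed at 8 h against 4 h or at 12 h against 8 h by edgeR. At an unadjusted p under 0.05 there were 0 members in both, and 841 and 873 of all 9411 genes tested. After adjustment no gene at all passed in either comparison. At 48 h against 24 h, 21 members passed in that fit. The members' median log2 fold change in that fit was -0.20 at 8 h against 4 h and 0.18 at 12 h against 8 h. Without 48 h replicate 4 none passed at 48 h against 24 h, with 10 at an unadjusted p under 0.05, and without 8 h replicate 1, 2 or 3 or 12 h replicate 3 none passed at 12 h against 8 h, with 22, 20, 21 and 15 at an unadjusted p under 0.05. The count at 12 h against 8 h was 22 without 8 h replicate 4, 21 without 12 h replicate 1 and 8 without 12 h replicate 4. The count at 8 h against 4 h was 14, 16 and 17 without 8 h replicate 1, 2 or 3, and 16 without 4 h replicate 1. At 48 h against 24 h the count was 44 without 48 h replicate 1, 8 without 48 h replicate 2, and 5 and 15 without 24 h replicate 3 or 4.

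Paralogous subunits were compared within each library, by the log2 ratio of their counts with 0.5 added, which needs no scaling between libraries. Of the 5 pairs in the table, each was tested at 7 times by a two-sided exact permutation test of 4 against 9 libraries (715 arrangements, smallest p 0.0014), with adjustment over the 35 tests; 13 passed, 7 lower and 6 higher. Counts are not per length, so a ratio shows how the pair shifted and not which form was more abundant.

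Both muscle forms of complex IV subunits were lower relative to their widely expressed partners at 16 and 24 h, and COX6A2 also at 20 h. The log2 ratio of COX6A2, the heart and skeletal muscle form, to COX6A1 was -0.47, -0.19, 0.14 and -0.07 at 16 h, against 1.07, 2.03 and 2.72 (lowest, median and highest) in the controls, a difference of -2.17 without overlap (adjusted exact permutation p = 0.00979). At 20 h the difference of COX6A2 to COX6A1 was -1.48 (adjusted exact p = 0.0184). At 24 h it was -2.06 (adjusted exact p = 0.0408) and went with replicate 3, at -3.27 against 0.14, 1.60 and 1.38 in the others. Without the libraries low in NDUFAF8, replicate 3 among them, it was -0.98 and did not pass (adjusted exact p = 0.1). The 24 h call was also lost without 24 h replicate 1 or any 1 of controls 2, 3, 4, 5, 7 and 8. The differences of this ratio at 4, 8, 12 and 48 h, -0.30, -1.15, -0.66 and -1.39, did not pass (adjusted exact p = 0.599, 0.0524, 0.1246 and 0.062).

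The log2 ratio of COX7A1, the muscle form of subunit 7A (chr6:45519225-45520721), to COX7A2 (chr1:90696746-90703407) was 1.88, 1.93, 2.05 and 2.00 at 16 h and 1.54, 1.77, 0.74 and 1.31 at 24 h, against 2.60, 2.73 and 3.58 in the controls. Neither time overlapped with the controls, and the differences were -0.96 and -1.58 (adjusted exact p = 0.00979 at both times). The other 5 times did not pass. Their differences were 0.42, -0.13 and -0.20 for 4, 8 and 12 h, and -0.67 and -0.91 for 20 and 48 h (lowest adjusted exact p = 0.1108). In levels, COX7A1 measured 105, 116, 68.2 and 97.4 CPM at 24 h, against 252, 416 and 613 CPM (lowest, median and highest) in the controls, a log2 fold change of -2.14 (SE 0.40, adjusted p = 5.36e-05). COX7A2 measured 36.2, 34.0, 40.8 and 39.3 CPM at 24 h, against 33.3, 59.6 and 77.7 CPM (lowest, median and highest), with overlap and a log2 fold change of -0.59 (SE 0.20, adjusted p = 0.0156); its calls at 16, 20 and 24 h were lost when libraries were scaled by column totals. COX6A2 measured 35.6, 35.9, 41.2 and 44.5 CPM at 16 h, against 91.8, 133 and 206 CPM (lowest, median and highest) in the controls, a log2 fold change of -1.90 (SE 0.49, adjusted p = 0.00181) without overlap, which did not pass with the library sets as a term (log2 -1.13, adjusted p = 0.0685).

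The 2 pairs with a form known to rise when oxygen is short shifted towards that form at 24 and 48 h, and each at 1 more time, 16 h for NDUFA4L2 and 20 h for COX4I2. The log2 ratio of NDUFA4L2 to NDUFA4 was -3.95, -3.75, -3.83 and -4.21 at 24 h, against -6.40, -5.69 and -4.52 in the controls, a difference of 1.64 without overlap (adjusted exact p = 0.00979). The differences were 0.95 at 16 h and 1.32 at 48 h (adjusted exact p = 0.049 and 0.0408). Both calls were lost without any 1 of controls 2, 3, 4, 5, 7, 8 and 9, the first also without any 1 of the 16 h libraries and the second without 48 h replicate 1 or 3, with adjusted exact p from 0.0568 to 0.117. At 4, 8, 12 and 20 h the differences of this ratio, 0.44, 0.23, 0.12 and 0.80, did not pass (lowest adjusted exact p = 0.0806).

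The log2 ratio of COX4I2 to COX4I1 was -5.46, -5.41, -5.64 and -6.24 at 24 h, against -7.24, -6.71 and -5.53 in the controls, a difference of 0.99 (adjusted exact p = 0.0184), where control 6 reached into the 24 h values. It differed by 0.86 at 20 h and 0.79 at 48 h (adjusted exact p = 0.0326 and 0.0408). The call of this ratio at 20 h was lost without control 2 or 3 or 20 h replicate 2, and that at 48 h without any 1 control other than 6 or without 48 h replicate 1 or 3. At 4, 8, 12 and 16 h the differences, 0.21, -0.06, 0.62 and -0.12, did not pass (adjusted exact p = 0.575, 0.883, 0.0734 and 0.753). In neither pair was the hypoxia-associated form itself called higher at any time, while NDUFA4 and COX4I1 fell at 16, 20 and 24 h.

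ATP5MC1 and ATP5MC3 specify the same ring subunit of complex V with different targeting sequences, and the sources do not say how reads shared between such copies were counted. Their log2 ratio was 0.64, 0.65, 0.38 and 0.50 at 24 h, against 0.81, 1.01 and 1.32 in the controls, a difference of -0.48 without overlap (adjusted exact p = 0.00979), and the difference at 48 h was -0.43 (adjusted exact p = 0.0163). Both genes fell at 24 h, ATP5MC1 to 163, 171, 122 and 141 CPM, against 327, 631 and 764 CPM (lowest, median and highest) in the controls, and ATP5MC3 to 105, 109, 94.1 and 99.5 CPM, against 163, 306 and 401 CPM (lowest, median and highest). Their log2 fold changes at 24 h were -1.93 and -1.46 (SE 0.34 and 0.28, adjusted p = 2.23e-05 and 6.83e-05).

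**Figure D4:**
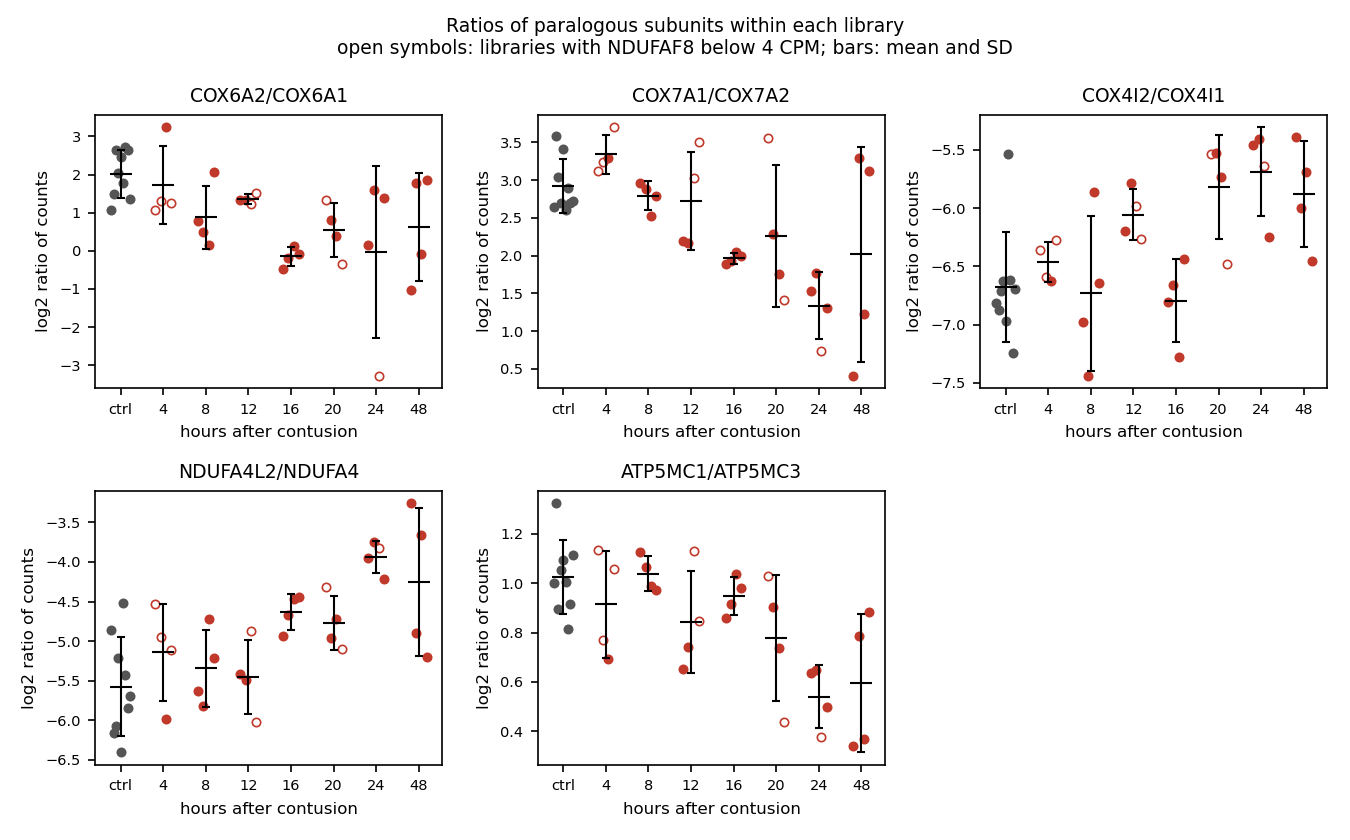
Log2 ratio of counts of 5 pairs of paralogous subunits within each library (y axis) by hours after contusion (x axis), with 1 point per library and bars for the mean and SD. The muscle forms COX6A2 and COX7A1 are lower relative to their partners at 16 h in each of the 4 libraries than in any control, and NDUFA4L2 is higher relative to NDUFA4 at 24 h in each of the 4 libraries than in any control.

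Genes that build the complexes or work beside them were counted from lists made for their roles. The counts are read against all genes tested. Of these, 28.2%, 27.8%, 26.2% and 27.1% were lower in the 8, 16, 20 and 24 h groups. Higher were 9.22%, 25.8%, 25.3% and 26.8% in the 4, 8, 16 and 24 h groups. Of the 39 assembly factors in the table, of 58 listed, 30 (76.9%) were lower and 1 higher at 16 h, with a median log2 fold change of -0.83, against -1.44 for the subunits. At 8 h 13 (33.3%) were lower, a share close to that of all genes. At 24 h 24 were lower. UQCC1, which stabilises newly made cytochrome b of complex III, averaged 41.2 ± 3.36 CPM at 24 h and 136 ± 19.4 CPM in the controls (SD, n = 4 and 9), a log2 fold change of -1.72 (SE 0.20, adjusted p = 8.14e-08). At 8 h the fold change of UQCC1 was -0.84 (SE 0.19, adjusted p = 0.000533). LYRM7, a complex III assembly factor that acts on UQCRFS1, averaged 3.11 ± 0.705 CPM at 20 h and 10.9 ± 2.11 CPM in the controls, a log2 fold change of -1.80 (SE 0.23, adjusted p = 4.74e-07). At 8 h that of LYRM7 was -1.10 (SE 0.22, adjusted p = 0.000127). NUBPL, which delivers iron-sulfur clusters to complex I, was lower at 8, 16 and 20 h, with log2 fold changes of -1.21 (SE 0.16, adjusted p = 3.57e-07), -1.02 (SE 0.16, adjusted p = 4.56e-06) and -0.97 (SE 0.16, adjusted p = 8.97e-06), and did not pass at 24 h, at -0.33 (SE 0.15, adjusted p = 0.0605).

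Of the 16 genes of electron carriers and coenzyme Q synthesis in the table, of 18 listed, 15 (93.8%) were lower at 20 h, with a median log2 fold change of -1.51. ETFDH, which passes electrons from fatty acid oxidation to coenzyme Q, averaged 91.9 ± 18.8 CPM at 20 h and 449 ± 130.3 CPM in the controls, a log2 fold change of -2.29 (SE 0.29, adjusted p = 4.41e-07). ETFA, a part of the flavoprotein that feeds ETFDH, had a log2 fold change of -1.31 (SE 0.18, adjusted p = 1.28e-06) at 16 h, and COQ5, a coenzyme Q methyltransferase, one of -1.80 (SE 0.18, adjusted p = 2.05e-08) at 20 h. Of the 12 subunit genes of mitochondrial DNA in the table, of 13 listed, 10 were lower at 8 h and 11 at 16 h, 9 were lower at 20 h, and at 24 h 6 were lower and 1 higher. Their medians at these times were -1.03, -1.20, -1.13 and -0.67, so at 24 h the median was closer to 0 than that of the nuclear subunits, at -1.51; that difference was not tested. At 4, 12 and 48 h 1, 1 and 0 were lower, with 1 higher at 4 h (by edgeR, 3 were lower at 48 h at an unadjusted p under 0.05). The gene lower at 4 h and at 12 h was ND6, which is also among the 9 lower at 20 h. ND5 of complex I averaged 3445 ± 430.5 CPM at 16 h and 7825 ± 1591 CPM in the controls, a log2 fold change of -1.18 (SE 0.27, adjusted p = 0.000436). ND4L, another complex I gene, measured 1.88, 17.7, 1.57 and 23.8 CPM at 24 h, against 1.19 to 3.96 CPM in the controls. Replicates 2 and 4 were above every control and replicates 1 and 3 inside their range, and the log2 fold change was 1.99 (SE 0.58, adjusted p = 0.00454). It was called higher at 4 h as well, at 2.07 (SE 0.58, adjusted p = 0.0142). There, replicate 3 measured 38.6 CPM and the others 1.32 to 3.77 CPM. That library and 24 h replicates 2 and 4 make up a library set that holds no control. The part of this library set in the higher calls of ND4L was not tested. At 16 h ND4L was lower, at -1.73 (SE 0.72, adjusted p = 0.0431). The calls of ND6 are not read as a result because its level defines a library set.

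Contractile and slow fibre genes were lower at times when the subunits were lower. The contractile list shares genes with the slow and the fast fibre lists, so the lists are not independent of each other. Of 24 contractile genes in the table, of 31 listed, 16 were lower at 16 h and 17 at 24 h, with medians of -1.93 and -2.45. MYOT, MYBPC1 and LDB3 had log2 fold changes of -2.74 (SE 0.44, adjusted p = 7.48e-06), -4.08 (SE 0.60, adjusted p = 1.94e-06) and -2.33 (SE 0.34, adjusted p = 1.92e-06) at 24 h. All 11 slow fibre genes in the table, of 12 listed, were lower at 8, 16, 20 and 24 h, with medians of -2.15, -3.09, -2.16 and -3.01. Summed, they reached 8759, 8324, 7345 and 5794 CPM at 24 h, against 11243, 73991 and 144363 CPM (lowest, median and highest) in the controls, which themselves differed widely. ATP2A2, the slow fibre calcium pump, MYH7B and MYL2 had log2 fold changes of -3.88 (SE 0.55, adjusted p = 1.21e-06), -4.89 (SE 0.82, adjusted p = 1.21e-05) and -4.19 (SE 0.76, adjusted p = 3.33e-05) at 24 h.

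Of the fast fibre genes, 9 of 13 listed were in the table, with 3 (33.3%) higher at 4 h at a median of 0.98, 1 lower at 16 h and 2 lower at 24 h. TNNI2, fast troponin I, had a log2 fold change of 1.15 (SE 0.36, adjusted p = 0.0253) at 4 h and -0.45 (SE 0.38, adjusted p = 0.329) at 24 h, MYOZ1 one of -1.28 (SE 0.33, adjusted p = 0.00143) at 24 h and PVALB one of -3.62 (SE 0.87, adjusted p = 0.000878) at 20 h. The control libraries ranged from 19292 to 115708 CPM in summed fast fibre genes and from 11243 to 144363 CPM in summed slow fibre genes. The part of fibre type in the fall of the subunits was not tested.

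**Figure D5:**
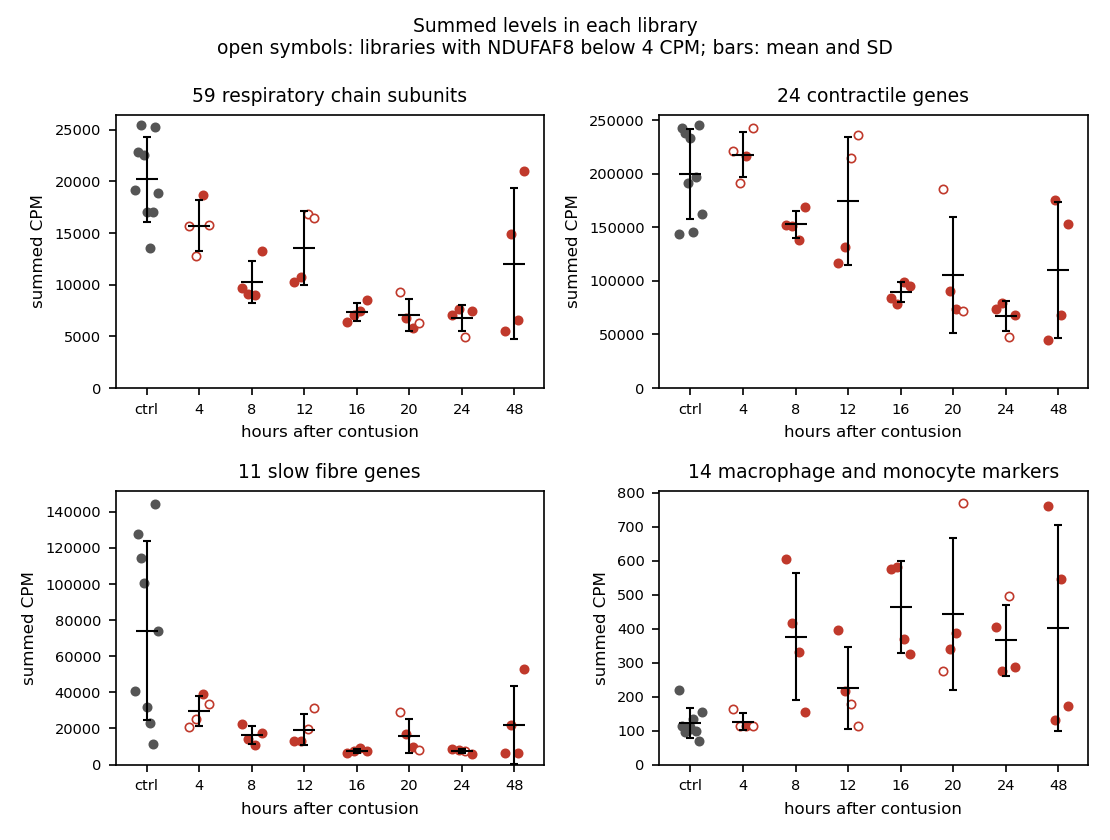
Summed CPM (y axis from 0) of the 59 subunit genes, 24 contractile genes, 11 slow fibre genes and 14 macrophage and monocyte markers by hours after contusion (x axis), with 1 point per library and bars for the mean and SD. The subunit and contractile sums are low together at 16 and 24 h, and at 48 h the 2 libraries with low subunit sums have macrophage sums of 762 and 545 CPM.

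Markers of other cells are given at 16 and 24 h for every list, and at another time where more of a list passed. Macrophage and monocyte markers, 14 of 15 listed, had 0 lower and 10 higher at 16 h, and 0 lower and 11 higher at 24 h. At 48 h 13 were higher, as were 1205 of the 9411 genes tested. The macrophage and monocyte markers summed to 325 to 582 CPM at 16 h, against 69.8 to 220.2 CPM in the controls. At 48 h their sums ran from 132 to 762 CPM and overlapped those of the controls. Neutrophil markers, 6 of 12, had 0 lower and 5 higher at 16 h, and 0 lower and 4 higher at 24 h. At 8 h all 6 were higher and summed to 18.1 to 298 CPM, against 1.37 to 12.3 CPM in the controls. MPO, ELANE and S100A9 were not analysed here. The 1 lymphocyte marker of 10 in the table was higher from 8 to 48 h, at 8.58 to 16.4 CPM at 16 h, against 1.36 to 2.91 CPM. Among the 4 muscle fibre markers of 7 there were 3 lower and 0 higher at 16 h, and 4 lower and 0 higher at 24 h. Their sum was 19573 to 24723 CPM at 16 h, against 32608 to 54928 CPM.

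Fibroblast markers, 9 of 9, had 4 lower and 1 higher at 16 h, and 3 lower and 1 higher at 24 h. At 8 and at 20 h 7 were lower. They summed to 891 to 3181 CPM at 8 h and 4727 to 5269.7 CPM at 16 h, against 2227 to 8650.5 CPM. Smooth muscle and pericyte markers, 7 of 8, had 4 lower and 0 higher at 16 h, and 4 lower and 0 higher at 24 h. At 8 and at 20 h 5 were lower. Their sum was 409 to 550.2 CPM at 16 h, against 655 to 1285 CPM. Endothelial markers, 8 of 10, had 2 lower and 1 higher at 16 h, and 3 lower and 0 higher at 24 h. These shares were close to those of all genes for the lower ones and below them for the higher ones. The sums at 16 h, 947 to 1170.1 CPM, lay inside the control range of 655 to 1633 CPM. Adipocyte markers, 5 of 6, had 0 lower and 0 higher at 16 h (1 and 0 at an unadjusted p under 0.05, by edgeR), and 0 lower and 1 higher at 24 h. All 5 were lower at 20 h, at 33.5 to 97.0 CPM in sum, against 84.7 to 416 CPM. Erythrocyte markers, 2 of 6, had 0 lower and 2 higher at 16 h, and 0 lower and 0 higher at 24 h (0 and 0 at an unadjusted p under 0.05, by edgeR). The sums were 300.1 to 657 CPM at 16 h, against 73.5 to 477 CPM. No marker in the table was at 0 in all controls.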

How the data were processed

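RNA of 37 libraries was sequenced, and the authors deposited 1 table of read counts per gene, whole numbers without normalization. Reads were trimmed, aligned and counted with Trimmomatic, HISAT2 2.2.1 and HTSeq on Sscrofa11.1, per the submitters' processing notes; neither strand nor the handling of reads shared by paralogs is stated there. The table has 9418 rows, the rule by which rows were kept is not stated, genes without a row were not analysed here, and CPM is a share of the counts in those rows. Sequences of the genes were not used here. Libraries were grouped by the labels; no 2 libraries of a group agreed within sampling noise (lowest chi-square per degree of freedom 16.1).

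Counts were tested with edgeR 4.0.16 in R 4.3.3 (TMM scaling, filterByExpr, robust quasi-likelihood fit over all 8 groups), with Benjamini-Hochberg adjustment over 9411 genes. The standard error is the size of the log2 fold change divided by the square root of F. Count intervals and limits cover counting error only. Same-numbered libraries did not deviate together (median correlation 0.037 over 112 pairs). The main step was tested on simulated data. Alternatives used DESeq2 1.42.0, limma 3.58.1, other scalings and filters, a replicate block, library sets, groups fitted alone and each library left out. The members and the 17 lists (8 related, 9 of cell markers) were chosen with earlier results of these data known. Genes named with values were, per complex, the 3 with the smallest and the 1 with the largest p over the 7 times, the largest falls at 8 and 48 h, all of complex II, any called higher and all paralog pairs, and up to 3 genes per related list by p; others are marked in the text. Gene positions are RefSeq's for Sscrofa11.1 and were found for 38 of the 59.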

Additional observations from a re-analysis of the deposited data

Results flagged for a closer look

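Among 312 groups of 4 to 10 libraries examined, 23 held a highest or lowest library whose gap to the nearest other exceeded Dixon's 95% critical value; chance gives about 1 in 20, and genes share their libraries. In 12 of the 23, the library was 8 h replicate 4, which stood above the other 8 h libraries. The CPM values there were 201 CPM for NDUFA5 (others 98.1 to 112), 97.9 CPM for NDUFC2 (others 61.1 to 65.7), 165 CPM for SDHD (others 83.1 to 95.9), 198 CPM for SDHC (others 149 to 156) and 401 CPM for UQCRFS1 (others 245 to 258). They were 190.2 CPM for UQCR10 (others 95.6 to 98.7), 83.8 CPM for UQCRQ (others 36.4 to 38.7), 314 CPM for UQCRC2 (others 213 to 219), 369 CPM for COX7C (others 192 to 216) and 124 CPM for ATP5PF (others 71.0 to 75.1). The summed level there was 789.7 CPM for complex II (others 533 to 569.7) and 1632 CPM for complex III (others 1047 to 1078).

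The library 24 h replicate 3 stood below the other 24 h libraries, at 137 CPM for UQCRFS1 (others 181 to 184), 289 CPM summed over complex II (others 414 to 425), 573 CPM over complex III (others 795 to 832) and 1428 CPM over complex V (others 2004 to 2098). At 20 h, replicate 1 was the highest, at 207 CPM for UQCRFS1 (others 138 to 146) and 138 CPM for UQCR10 (others 86.6 to 94.3). At 4 h, replicate 1 was the highest, at 74.4 CPM for COX6A1 (others 35.0 to 41.6) and 77.6 CPM for COX7A2L (others 39.3 to 39.7). At 12 h, replicate 3 had 23.3 CPM for NDUFA4L2 (others 9.08 to 9.96). The log2 ratio of COX6A2 to COX6A1 was 3.25 in 4 h replicate 3 (others 1.08 to 1.30), and that of COX4I2 to COX4I1 was -5.53 in control 6 (other controls -7.24 to -6.62).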

How the results depend on the processing

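The counts of members called at 8, 16, 20 and 24 h against control and over the 7 times together stayed within 1.5 times of the reported counts under each alternative scaling, filter, tool, block and sample choice that was run for them, and no direction that passed the test was reversed. Other counts moved; the cause was not tested. Scaled by column totals, the log2 fold changes at 24 h that had not passed turned sign for COX4I2, to 0.38, and NDUFA4L2, to 0.05. By the same scaling, 17 members were called at 4 h and 11 at 48 h against 24 h, the members' median minus that of all genes being -0.28 at 4 h and -1.40 at 16 h. With limma-voom, 44 were called at 48 h and 13 at 48 h against 24 h. With the library sets as a term, no gene at all passed at 8 h against 4 h or at 12 h against 8 h. The members' counts in that fit were 0 at 4 h, 4 at 48 h and 0 in both of those. Without the libraries low in NDUFAF8 they were 32 at 12 h, 0 at 12 h against 8 h (1 at an unadjusted p under 0.05, by edgeR) and 8 at 48 h against 24 h; the fits for 4 h, 8 h against 4 h and the 7 times together were not run. With only the 2 groups compared in the edgeR fit, 0 were called at 48 h (39 at an unadjusted p under 0.05), 1 at 12 h against 8 h and 0 at 48 h against 24 h (10 unadjusted). Within 1 library set, added after the data were seen, 49 were called at 12 h and 0 at 48 h, where no gene at all passed. With a difference of medians, 7 paralog ratios were called.

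Leaving out 1 library at a time, the counts ran from 1 to 7 at 4 h, 40 to 56 at 8 h, 5 to 22 at 12 h, 54 to 57 at 16 h, 54 to 56 at 20 h, 51 to 55 at 24 h and 0 to 49 at 48 h. Between times they ran from 14 to 37 (8 h against 4 h), 0 to 22 (12 h against 8 h) and 0 to 44 (48 h against 24 h), and for the paralog ratios from 8 (without control 2 or 3) to 16. The replicate numbers do not pair the libraries (same-number correlations down to -0.60); with the replicate block the counts were 5, 49, 25, 57, 54, 51 and 37 from 4 to 48 h, and COX7A2L at 24 h was not called (adjusted p = 0.148). Depth was not limiting for the members, whose lowest count was 17; the limits lie in the number of libraries, the 8 animals, the library sets and the spread at 12 and 48 h.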

Other observations

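Of 20 regulators of respiratory genes listed, all in the table, 6 were lower and 7 higher at 8 h, against 28.2% and 25.8% of all genes, so that these shares (30% and 35%) were close to the background. At 24 h 10 were lower (50%) and 5 higher (25%), against 27.1% and 26.8% of all genes. PPRC1, a coactivator related to PGC-1, averaged 138 ± 34.4 CPM at 8 h and 20.6 ± 3.64 CPM in the controls (SD, n = 4 and 9), a log2 fold change of 2.75 (SE 0.26, adjusted p = 1.21e-09) by edgeR. PPARGC1B, which specifies PGC-1 beta, was lower at each time from 4 to 24 h and not called at 48 h. Its log2 fold changes were -2.24 (SE 0.39, adjusted p = 0.000299) at 4 h, -2.10 (SE 0.39, adjusted p = 4.72e-05) at 16 h and 0.08 (SE 0.34, adjusted p = 0.898) at 48 h. At 48 h it measured 4.72, 18.8, 8.34 and 36.4 CPM in replicates 1 to 4, against 11.4 to 22.2 CPM in the controls. TFB2M, a factor of mitochondrial transcription, had 0.77 (SE 0.17, adjusted p = 0.000276) at 8 h and -0.85 (SE 0.18, adjusted p = 0.00129) at 48 h.

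Of 26 genes of mitochondrial import, pores and cristae in the table, of 34 listed, 21 (80.8%) were lower at 16 h, against 27.8% of all genes, with a median log2 fold change of -0.85, and 15 (57.7%) were lower and 2 higher at 8 h, against 28.2% and 25.8%, with a median of -0.45. The cristae gene APOO averaged 10.7 ± 2.57 CPM at 16 h and 35.4 ± 5.12 CPM in the controls, a log2 fold change of -1.72 (SE 0.25, adjusted p = 2.61e-06). CHCHD3, another cristae gene, did not pass the test at 8 h, at -0.14 (SE 0.20, adjusted p = 0.558), and was lower at 16 h, at -1.34 (SE 0.21, adjusted p = 6.39e-06). The outer membrane pore gene VDAC3 had -1.15 (SE 0.24, adjusted p = 0.000154) at 8 h and -1.80 (SE 0.25, adjusted p = 9.65e-07) at 16 h.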
